A study of Leptinotarsa decemlineata with 6 samples.

Results

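The genes described here are the phototransduction and eye pigment genes of the Colorado potato beetle (CPB), Leptinotarsa decemlineata. Of 236706 genes with a deposited value, 92 had a Swissprot best match named as an opsin, an arrestin, a transient receptor potential (TRP) channel, a phosphoinositide phospholipase C, a photoreceptor protein such as chaoptin, a retinal, retinol or retinoid protein, an eye pigment transporter, or an enzyme of tryptophan and kynurenine metabolism. Arrestin domain proteins were left out. Of the 92 genes, 56 averaged at least 1 TPM in a group, and these 56 are the genes described. TPM is a level corrected for transcript length and for library size, so different genes can be compared on it. A gene carries the name of its best protein match, often from another species.

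Adult beetles of the antibiotic group ate fresh potato leaves soaked in a mixture of tetracycline, penicillin, ofloxacin, ciprofloxacin and ampicillin, and those of the non-treatment group ate leaves without it, in a study of gut microbes and odorant receptor genes. Each group had 3 libraries. The labels give all 6 libraries the genotype WT, the tissue head and a cell type worded as head olfactory cell, and the methods describe whole heads. The labels do not say whether the libraries of a group came from separate animals or pools, so the p values measure only the spread between these samples, which may be technical.

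In an insect eye, light changes the shape of an opsin that carries a retinal chromophore, and the opsin activates a Gq protein. Gq switches on phospholipase C beta, which leads to the opening of the TRP and TRPL channels, and arrestin then binds the opsin and ends its signal. Screening pigments surround the photoreceptors: the ommochromes are made from tryptophan by way of kynurenine, the pteridines from GTP, and ABC transporters of the White, Scarlet and Brown family load their precursors into pigment granules. The roles given below are those known from Drosophila melanogaster, the fruit fly, unless another animal is named.

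The 2 photoreceptor marker genes, a rhodopsin and an arrestin, lay near 0 in the 3 libraries labelled non-treatment, although these are labelled as heads. Both had been picked in earlier work on these data for their difference, so they are described without a test and are no independent check of the label. The study elsewhere names its comparison AH against HH, while the libraries labelled non-treatment are titled AA and the antibiotic libraries AH, and whether AA and HH name the same samples is not settled here. The library totals were 31928906 and 33613953 estimated counts in 2 of the antibiotic libraries and 25397497 to 31185289 in the libraries labelled non-treatment, while antibiotic replicate 1 was analysed by its TPM only. Between 93718 and 100622 genes were above 0 in the antibiotic libraries, against 109698 to 111005 in the libraries labelled non-treatment. Over all 33919 genes with a mean of at least 1 TPM in a group, 2.88% passed as higher and 7.26% as lower in antibiotic libraries (10.1% in either direction) at a limma adjusted p under 0.05, and the groups did not overlap for 10.5% that were higher and 19.8% that were lower. Lists of genes of other tissues moved as well. Of 64 measured genes of sperm and the axoneme 45 were lower in the antibiotic group, of 111 gut digestion genes 40 were lower, and of 21 neuron and synapse genes 3 were higher and 4 were lower. The part of these differences in the results below was not tested. A difference in the tissue sampled and the antibiotic treatment cannot be told apart, and in bulk RNA fewer cells of a type and less RNA per cell cannot be told apart.

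Among the 5 opsin genes, 3 stood far higher in the antibiotic libraries and 2 overlapped between the groups, beside 10.5% of all tested genes that were higher without overlap and 2.88% called higher. Values are given in the order of replicates 1, 2 and 3. The rhodopsin marker, TRINITY_DN52274_c7_g1, named after a rhodopsin of the mantis Sphodromantis, had 161, 212 and 138 TPM in the antibiotic libraries, against 0.592, 0.639 and 0.252 TPM in the libraries labelled non-treatment. The 3 low values rested on 19, 21 and 9 counts, while antibiotic replicates 2 and 3 had 9618 and 6054 counts. The mean of the libraries labelled non-treatment was 0.291% of the antibiotic mean.

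Both of the other high opsin genes were named after Opsin Rh3, an ultraviolet-sensitive opsin of the fly. TRINITY_DN53157_c7_g1 had 40.6, 46.5 and 28.9 TPM in the antibiotic libraries, against 1.82, 1.13 and 0.604 TPM in the libraries labelled non-treatment. Its difference was 4.19 on the log2(TPM + 1) scale (SE 0.286, limma adjusted p = 0.000271), and its groups did not overlap. TRINITY_DN58100_c4_g1 had 24.5, 20.6 and 14.2 TPM in the antibiotic libraries, against 1.16, 0.948 and 0.81 TPM in the libraries labelled non-treatment, a difference of 3.37 (SE 0.252, limma adjusted p = 0.000394). Both genes best match the same beetle protein in the second database of the annotation, so they may be pieces of 1 gene, although they are counted as separate genes here.

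As rhodopsin was picked for the size of its difference, its ratio to the other opsins is given as a description. Rhodopsin was 3.96, 4.55 and 4.76 times the level of the first Rh3 gene in the antibiotic libraries, and 0.325, 0.564 and 0.418 times that level in the libraries labelled non-treatment. In the antibiotic libraries the rhodopsin lay above the Rh3 gene, and in the libraries labelled non-treatment it lay below it, on 19, 21 and 9 counts for rhodopsin and 102, 67 and 40 for the Rh3 gene. The ratio of the marker arrestin to rhodopsin, was 0.664, 0.591 and 0.652 in the antibiotic libraries and 0.494, 0.865 and 2.19 in the libraries labelled non-treatment, so that its groups overlapped.

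The other 2 opsin genes are named after opsins that are not the visual pigments of insect eyes. TRINITY_DN55640_c8_g2, named after the Gq-coupled rhodopsin of a scallop but closest to a prostaglandin receptor in the second database, had 1.05, 2.76 and 3.48 TPM in the antibiotic libraries and 2.44, 2.84 and 4.08 TPM in the libraries labelled non-treatment. TRINITY_DN55287_c0_g2, named after the pineal opsin of the pigeon, had 1.03, 2.15 and 1.48 TPM in the antibiotic libraries and 0.777, 1.9 and 1.68 TPM in the libraries labelled non-treatment. The groups of both genes overlapped (limma adjusted p = 0.62 and 0.919), and the sign of each difference turned in some alternative settings.

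**Figure D1:**
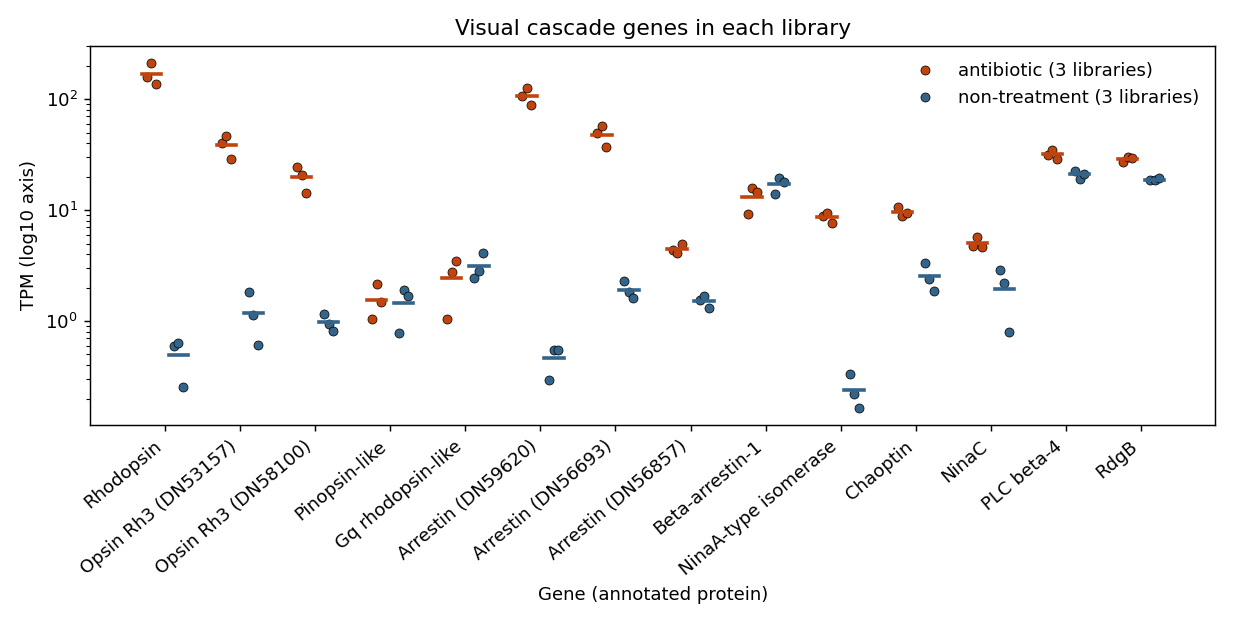
TPM on a log10 axis of 14 genes of the visual cascade in each library; dots are libraries, bars are group means, with the antibiotic group left and the non-treatment group right for each gene. The rhodopsin and Rh3 genes, the arrestins other than beta-arrestin-1, the NinaA-type isomerase and chaoptin are well apart, while the pinopsin-like, Gq rhodopsin-like and beta-arrestin-1 genes overlap.

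Of the 4 arrestin genes, 3 were higher in the antibiotic group, the marker among them, beside 2.88% of all tested genes, and the one named beta-arrestin-1 in both databases was not. The marker arrestin, TRINITY_DN59620_c3_g2, had 107, 125 and 89.7 TPM in the antibiotic libraries, against 0.292, 0.553 and 0.552 TPM in the libraries labelled non-treatment. The second arrestin, TRINITY_DN56693_c2_g3, named after an arrestin of the moth Heliothis virescens, had 49.4, 57 and 37.4 TPM in the antibiotic libraries, against 2.3, 1.83 and 1.63 TPM in the libraries labelled non-treatment (log2 difference 4.05, SE 0.227, limma adjusted p = 9.78e-05). Every antibiotic value of either gene lay far above every value of the other group.

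TRINITY_DN56857_c1_g1 had the name beta-arrestin-1 in Swissprot and arrestin homolog in the second database. It stood at 4.41, 4.14 and 4.96 TPM in the antibiotic libraries, against 1.55, 1.67 and 1.3 TPM in the libraries labelled non-treatment (log2 difference 1.13, SE 0.212, limma adjusted p = 0.0153). The call was lost without antibiotic replicate 1 (adjusted p = 0.0502), antibiotic replicate 3 (0.0718) or non-treatment replicate 2 (0.0501). It was also lost with no filter on low values (0.0614) and with a replicate block (0.0502). Beta-arrestins bind many receptors in many tissues. The gene named for one in both databases, TRINITY_DN53563_c5_g1, had 9.24, 16 and 14.6 TPM in the antibiotic libraries and 13.9, 19.5 and 18 TPM in the libraries labelled non-treatment. Its groups overlapped (log2 difference -0.37, SE 0.257, limma adjusted p = 0.437).

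Of the 4 genes of other photoreceptor proteins, 2 were higher, 1 did not overlap but missed the threshold, and 1 overlapped, beside 2.88% of all tested genes called higher and 10.5% higher without overlap. TRINITY_DN52544_c0_g5 is named after the rhodopsin-specific cyclophilin of the blowfly Calliphora, the counterpart of the fly protein NinaA, which helps rhodopsin to fold and leave the endoplasmic reticulum. It had 8.8, 9.41 and 7.64 TPM in the antibiotic libraries, against 0.331, 0.22 and 0.166 TPM in the libraries labelled non-treatment (log2 difference 2.95, SE 0.216, limma adjusted p = 0.000374). The 3 low values rested on 16, 11 and 9 counts.

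Chaoptin, a cell adhesion protein of the light-sensing membrane stack, was represented by TRINITY_DN63176_c1_g1. It had 10.7, 8.93 and 9.51 TPM in the antibiotic libraries, against 3.37, 2.4 and 1.87 TPM in the libraries labelled non-treatment, and the log2 difference was 1.62 (SE 0.233, limma adjusted p = 0.00525). The groups did not overlap, but the mean of the libraries labelled non-treatment was 26.2% of the antibiotic mean for chaoptin, against 2.77% for the cyclophilin and 0.291% for rhodopsin. The size of the difference thus varied widely among these genes. A second chaoptin match, TRINITY_DN61218_c0_g2, was under 1 TPM in all libraries.

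NinaC, a kinase joined to a myosin that photoreceptors need to end the response, was represented by TRINITY_DN52620_c7_g1 at 4.77, 5.78 and 4.65 TPM in the antibiotic libraries and 2.86, 2.19 and 0.797 TPM in the libraries labelled non-treatment. Its groups did not overlap, and its log2 difference of 1.11 (SE 0.318) missed the threshold (limma adjusted p = 0.0727). It passed in 2 of 17 alternatives, DESeq2 (adjusted p = 0.00754) and edgeR without a count filter (1.44e-06). TRINITY_DN62638_c3_g1, named after the delta subunit of the mouse rod phosphodiesterase, a lipid-binding carrier found in many tissues, had 15.7, 23.5 and 18.7 TPM in the antibiotic libraries and 20.5, 20.1 and 19.4 TPM in the libraries labelled non-treatment. Its groups overlapped (limma adjusted p = 0.881).

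The 8 genes of these 3 groups that were higher, markers included, summed to 405, 483 and 330 TPM in the antibiotic libraries, against 11.4, 9.39 and 7.18 TPM in the libraries labelled non-treatment. Without the 2 markers, the other 6 summed to 138, 147 and 103 TPM in the antibiotic libraries and 10.5, 8.2 and 6.38 TPM in the libraries labelled non-treatment. As these genes were taken because they were higher, both sums only describe their level. For the 2 Rh3 genes, the Heliothis-type arrestin, the cyclophilin and chaoptin the call held in all 17 alternatives. The Rh3 gene TRINITY_DN58100_c4_g1 and the cyclophilin entered the 56 genes only through the antibiotic mean. Higher antibiotic values were thus built into the choice of these genes. Within the antibiotic group, replicate 2 was highest in 5 of the 8 genes and replicate 3 lowest in 6. The sum over the 56 genes overlapped between the groups, at 1072, 1380 and 1148 TPM in the antibiotic libraries and 964, 984 and 1184 TPM in the libraries labelled non-treatment.

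The steps between the opsin and the channel varied, and their differences were not tested against those of the opsins. Genes named for the eye G protein beta subunit, given below, were higher by 1.29 and 1.79. Among the 4 phospholipase C genes none passed the threshold. The best expressed, TRINITY_DN59764_c3_g1, named after human phospholipase C beta-4, the vertebrate counterpart of the fly enzyme NorpA, had 31.7, 34.9 and 29.1 TPM in the antibiotic libraries and 22.5, 19.2 and 21.3 TPM in the libraries labelled non-treatment. Its groups did not overlap (log2 difference 0.58, SE 0.181, limma adjusted p = 0.0924), and it passed with TPM rescaled between libraries (0.68, adjusted p = 0.0412). A second beta-4 match, TRINITY_DN65852_c4_g1, lay just inside the 1 TPM threshold, with means of 0.773 TPM in the antibiotic group and 1.06 TPM in the non-treatment group. Genes named after phospholipase C gamma-1 and epsilon-1 stayed at or under 2.02 TPM in every library.

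The Gq alpha subunit fell outside the wording of the list and was looked up after the values had been seen. TRINITY_DN64601_c2_g1 had 46.9, 49.7 and 44 TPM in the antibiotic libraries and 42.5, 40.5 and 37.1 TPM in the libraries labelled non-treatment. Its groups did not overlap, and the difference was small (0.22, SE 0.173, limma adjusted p = 0.484). RdgB, which carries phosphatidylinositol back to the photoreceptor membrane, was represented by TRINITY_DN58127_c0_g2 at 27.3, 30.2 and 29.8 TPM in the antibiotic libraries and 18.6, 18.6 and 19.4 TPM in the libraries labelled non-treatment. It did not overlap either, and missed the threshold (log2 difference 0.60, SE 0.17, limma adjusted p = 0.0707). With TPM rescaled between libraries RdgB passed (0.70, limma adjusted p = 0.0248). Phospholipase C beta, Gq alpha and RdgB thus stayed well above 10 TPM in the libraries in which rhodopsin was under 1 TPM.

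The 10 TRP channel genes moved in both directions: 1 was higher in the antibiotic group, 3 were lower and 6 did not pass, beside 2.88% of all tested genes called higher and 7.26% called lower. TRP itself, the main light-gated channel, was represented by TRINITY_DN61199_c0_g1 at 7.6, 6.18 and 5.18 TPM in the antibiotic libraries, against 2.58, 0.646 and 0.892 TPM in the libraries labelled non-treatment. The log2 difference was 1.70 (SE 0.336, limma adjusted p = 0.0191). The call was lost without antibiotic replicate 1 (adjusted p = 0.0836), antibiotic replicate 2 (0.0708), non-treatment replicate 2 (0.0668) or non-treatment replicate 3 (0.0584), and narrowly without a filter on low values (0.0501). TRPL, the second light-gated channel, was represented by TRINITY_DN62500_c0_g1 at 1.56, 1.15 and 0.576 TPM in the antibiotic libraries and 0.428, 0.36 and 0.219 TPM in the libraries labelled non-treatment. Its groups did not overlap, and as its mean over all 6 libraries was under 1 TPM no p is given.

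None of the 3 lower channels was TRP or TRPL. All 3 passed the 1 TPM filter only through the non-treatment mean, so a lower antibiotic mean was built into their choice. Of the 10 TRP channel genes, 6 passed only in this way. TRPL was the 1 that passed only through the antibiotic mean, so its direction was built in as well. TRINITY_DN50471_c0_g1 is named after human TRPC5, of the channel subfamily to which fly TRP and TRPL belong. It had 0, 0.0857 and 0 TPM in the antibiotic libraries, against 13.6, 11.1 and 3.08 TPM in the libraries labelled non-treatment (log2 difference -3.13, SE 0.468, limma adjusted p = 0.0061), a call that held in all 17 alternatives. TRINITY_DN55143_c0_g1, named after Pyrexia, a heat-gated channel, was at 0 TPM in all 3 antibiotic libraries, against 2.67, 1.25 and 2.66 TPM in the libraries labelled non-treatment. Its fitted difference of -1.64 (SE 0.289, limma adjusted p = 0.0121) depends on the pseudocount of 1, and the call was lost without antibiotic replicate 1 (adjusted p = 0.0513).

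The third lower channel, TRINITY_DN48992_c0_g1, named after human TRPV4, had 0.377, 0.158 and 0.104 TPM in the antibiotic libraries, against 3.64, 2.37 and 1.06 TPM in the libraries labelled non-treatment. Its log2 difference was -1.40 (SE 0.344, limma adjusted p = 0.0437), and the call was lost without any one library except non-treatment replicate 3, with adjusted p from 0.0936 to 0.134. In all, the call was lost in 9 of 17 alternatives. A Painless match, TRINITY_DN57262_c0_g8, had 0, 0 and 0.179 TPM in the antibiotic libraries and 0.854, 3.52 and 1.4 TPM in the libraries labelled non-treatment, without overlap, and no p is given as its mean over all 6 libraries was under 1 TPM. Another, TRINITY_DN54506_c0_g1, named after the same channel of heat and touch neurons and the best expressed of the 10, had 8.85, 12.2 and 10.2 TPM in the antibiotic libraries and 8.65, 9.72 and 8.47 TPM in the libraries labelled non-treatment, and its groups overlapped (log2 difference 0.19, SE 0.201, limma adjusted p = 0.613). TRINITY_DN58856_c4_g2, named after the single fly TRPM channel, had 0.453, 0.947 and 0.742 TPM in the antibiotic libraries and 1.8, 2.28 and 2.22 TPM in the libraries labelled non-treatment, without overlap and without passing (-0.86, SE 0.244, limma adjusted p = 0.0693).

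**Figure D2:**
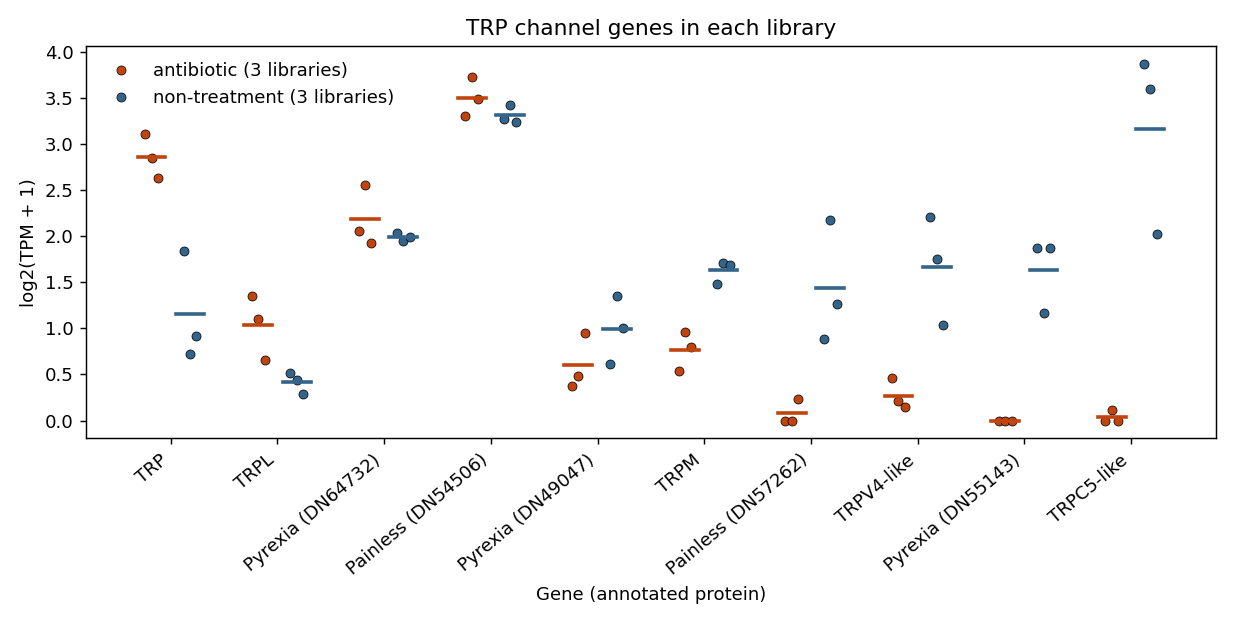
Level of the 10 TRP channel genes as log2(TPM + 1), ordered by the difference between groups; dots are libraries, bars are group means, antibiotic left and non-treatment right. TRP and TRPL, at the left, do not overlap and have their larger values in the antibiotic libraries, the Painless gene with 8.47 to 12.2 TPM overlaps, and the TRPC5-like gene and the Pyrexia gene DN55143 are at or near 0 in the antibiotic libraries.

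Of the 20 genes with a retinal, retinol or retinoid name, none was higher, 3 were lower and 17 did not pass, beside 2.88% of all tested genes called higher and 7.26% called lower. Insects make retinal from dietary carotenoids, and short-chain dehydrogenases convert it to retinol and back, but most of these genes were named after mouse or human enzymes and their substrates in the beetle are not known from the annotation. The best expressed, TRINITY_DN65162_c5_g1, named after mouse retinol dehydrogenase 14, had 117, 130 and 114 TPM in the antibiotic libraries and 144, 119 and 146 TPM in the libraries labelled non-treatment. Its groups overlapped (log2 difference -0.18, SE 0.188, limma adjusted p = 0.616).

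Retinal dehydrogenase 1 is an aldehyde dehydrogenase that in vertebrates turns retinal into retinoic acid. TRINITY_DN53366_c1_g1, named after the hamster enzyme, had 15.9, 13.3 and 15.3 TPM in the antibiotic libraries, against 45.4, 37.8 and 43.7 TPM in the libraries labelled non-treatment. It was lower by a log2 difference of -1.45 (SE 0.184, limma adjusted p = 0.00315), and the call held in all 17 alternatives. The other lower genes were less stable. They passed the 1 TPM filter only through the non-treatment mean, so a lower antibiotic mean was built into their choice. TRINITY_DN54730_c5_g1, named after human retinoid-inducible serine carboxypeptidase, a peptidase that is named for its induction, had 0.904, 1.06 and 0.62 TPM in the antibiotic libraries, against 4.31, 3.53 and 2.29 TPM in the libraries labelled non-treatment (-1.21, SE 0.269, limma adjusted p = 0.0297). That call was lost without any one library except non-treatment replicate 3, with adjusted p from 0.0704 to 0.107, and in 7 of 17 alternatives in all.

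TRINITY_DN59864_c6_g1, named after human retinol dehydrogenase 11, had 0, 0 and 1.03 TPM in the antibiotic libraries, against 2.37, 12.7 and 4.15 TPM in the libraries labelled non-treatment. Its difference of -2.29 (SE 0.544, limma adjusted p = 0.0382) lost its call without any one library except non-treatment replicate 1, with adjusted p from 0.0507 to 0.136, and with DESeq2 (0.439). In all, the call was lost in 11 of 17 alternatives. A second gene of that name went the other way in 1 library above all: TRINITY_DN50596_c1_g4 had 1.19, 5.6 and 49.6 TPM in the antibiotic libraries and 0.301, 0.333 and 0.0396 TPM in the libraries labelled non-treatment. Antibiotic replicate 3 stood far above the rest of its group, and the difference did not pass (2.89, SE 0.99, limma adjusted p = 0.12), though it did with DESeq2 on 5 libraries (7.37, adjusted p = 2.82e-06).

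Another carboxypeptidase of that name, TRINITY_DN59002_c10_g1, spread as widely among the libraries labelled non-treatment. It had 14.2, 22.8 and 20.5 TPM in the antibiotic libraries and 15, 102 and 59.5 TPM in the libraries labelled non-treatment, so that its groups overlapped (-1.23, SE 0.623, limma adjusted p = 0.28). Without non-treatment replicate 1 it passed (adjusted p = 0.0158). Retinol dehydrogenase 14 match TRINITY_DN57323_c0_g1 and the epidermal retinol dehydrogenase 2 match TRINITY_DN54791_c2_g2 overlapped (log2 differences -0.74 and 0.62). The retinol dehydrogenase 11 match TRINITY_DN58545_c1_g2 had 30.4, 39 and 34.7 TPM in the antibiotic libraries and 28.1, 26.4 and 29.3 TPM in the libraries labelled non-treatment, without overlap and without passing (0.30, SE 0.183, limma adjusted p = 0.376). Another retinol dehydrogenase 14 match, TRINITY_DN65427_c0_g1, had 14.6, 27.6 and 34.2 TPM in the antibiotic libraries and 8.24, 12.6 and 10 TPM in the libraries labelled non-treatment, again without overlap. It missed the threshold (1.17, SE 0.329, limma adjusted p = 0.0676) and passed in 7 of 17 alternatives.

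The 9 genes of eye pigment names included 2 lower genes, none that was higher and 7 that did not pass, beside 7.26% of all tested genes called lower and 2.88% called higher. The ommochrome pathway starts with tryptophan 2,3-dioxygenase, the product of the vermilion gene. TRINITY_DN65810_c3_g1, named after the enzyme of the beetle Tribolium castaneum, had 130, 145 and 66.7 TPM in the antibiotic libraries and 204, 109 and 211 TPM in the libraries labelled non-treatment. TRINITY_DN62383_c4_g1, of the same match, had 40.8, 66.3 and 62.4 TPM in the antibiotic libraries and 71.9, 47.3 and 76.2 TPM in the libraries labelled non-treatment. The groups overlapped for both (limma adjusted p = 0.364 and 0.703), and the genes may be pieces of 1 enzyme.

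The next steps overlapped as well. Kynurenine formamidase, which frees kynurenine, was represented by TRINITY_DN61749_c4_g1 at 28.8, 63.1 and 41.8 TPM in the antibiotic libraries and 31.6, 34.7 and 43.7 TPM in the libraries labelled non-treatment (limma adjusted p = 0.709). Kynurenine 3-monooxygenase, the product of the cinnabar gene, was represented by TRINITY_DN61367_c5_g1 at 0.967, 0.679 and 0.552 TPM in the antibiotic libraries and 3.73, 0.298 and 5.88 TPM in the libraries labelled non-treatment. Its difference of -1.01 did not pass (SE 0.578, limma adjusted p = 0.338) and its sign turned on the counts, 35 and 27 in antibiotic replicates 2 and 3 and 24, 14 and 29 in the libraries labelled non-treatment (0.42 with edgeR). Without non-treatment replicate 2 it passed (-1.72, adjusted p = 0.0275).

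The largest decrease among the 56 genes, as a difference on the log2(TPM + 1) scale, was that of a transaminase that leads kynurenine away from the pigment, to kynurenic acid. TRINITY_DN53997_c4_g1, named after bovine kynurenine-oxoglutarate transaminase 3, had 0.477, 1.03 and 0.408 TPM in the antibiotic libraries, against 71.5, 86.4 and 154 TPM in the libraries labelled non-treatment. The difference was -5.94 (SE 0.32, limma adjusted p = 8.35e-05), and the call held in all 17 alternatives. This transaminase entered the 56 genes only through the non-treatment mean, so a lower antibiotic mean was built into its choice. A second transaminase gene, TRINITY_DN55689_c0_g1, named after the human enzyme, had 38.3, 50.9 and 49 TPM in the antibiotic libraries and 54.8, 53 and 56.8 TPM in the libraries labelled non-treatment. It did not overlap, and its difference was small and did not pass (-0.26, SE 0.19, limma adjusted p = 0.458).

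The transporters were low in all libraries. White, which pairs with Scarlet or Brown to load pigment granules, was represented by TRINITY_DN49880_c0_g1 at 0.0379, 0.311 and 0.178 TPM in the antibiotic libraries, against 1.86, 1.9 and 1.75 TPM in the libraries labelled non-treatment (log2 difference -1.28, SE 0.243, limma adjusted p = 0.0164). The groups did not overlap, and the call was lost without antibiotic replicate 1 (adjusted p = 0.0574), antibiotic replicate 3 (0.0615) or non-treatment replicate 2 (0.056). It was also lost with a replicate block (0.0577). Scarlet was represented by TRINITY_DN52235_c5_g1 at 0.827, 0.617 and 0.626 TPM in the antibiotic libraries and 1.88, 2.07 and 1.3 TPM in the libraries labelled non-treatment, without overlap and without passing (-0.69, SE 0.245, limma adjusted p = 0.13). White and Scarlet entered the 56 genes only through the non-treatment mean, as did 5 of the 9 pigment genes in all. Lower antibiotic values were thus built into their choice, and their direction is only described. Rhodopsin, the marker arrestin, the Rh3 gene TRINITY_DN58100_c4_g1 and the cyclophilin entered only through the antibiotic mean. That they went opposite to White and Scarlet was therefore set by the filter and is no result. The second database names the White match only as an ABC transmembrane transporter. No gene had a Swissprot name of the Brown transporter.

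**Figure D3:**
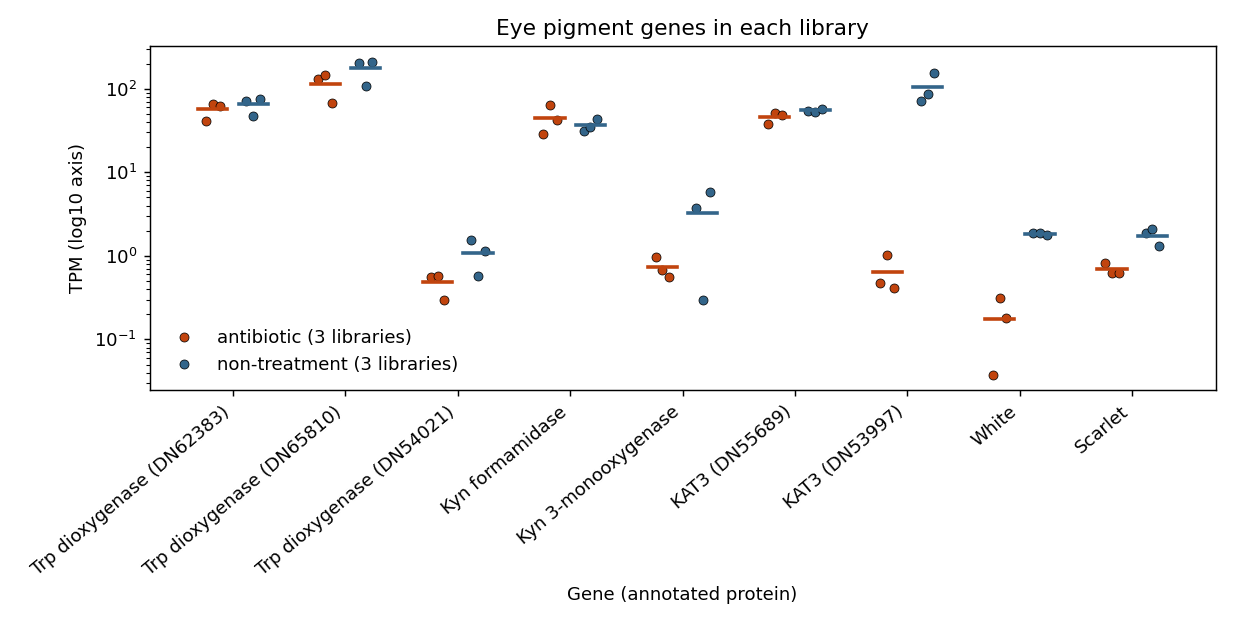
TPM on a log10 axis of the 9 genes with eye pigment names in each library; dots are libraries, bars are group means, antibiotic left and non-treatment right. The dioxygenase and formamidase genes overlap, the transaminase DN53997 is at 0.408 to 1.03 TPM in the antibiotic libraries against 71.5 to 154 TPM, and White and Scarlet lie under 2.1 TPM in all libraries.

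By group, the median log2 difference was 3.37 for the 5 opsins, 2.59 for the 4 arrestins, 1.36 for the 4 other photoreceptor proteins, 0.25 for the 4 phospholipases C, -0.62 for the 10 TRP channels, -0.20 for the 20 retinoid genes and -0.63 for the 9 pigment genes. Without the 2 markers it was 1.72 for the other 4 opsins and 1.13 for the other 3 arrestins. Over the 56 genes it was -0.14, beside -0.092 over all 33919 genes tested (-0.012 after rescaling). At an adjusted p under 0.05, 9 of the 56 were higher, the 2 markers among them, 8 were lower and 39 did not pass, so 17 were called in either direction, beside 10.1% of all tested genes. The groups did not overlap for 17 genes that were higher and 14 that were lower, beside 10.5% and 19.8% of all tested genes in these directions. The rule that chose the 56 genes used the same TPM values, so these counts are a description. Of the 56, 7 passed only through the antibiotic mean and 15 only through the non-treatment mean. Of the 34 at 1 TPM or more in both groups, 5 were higher, 1 was lower and 28 did not pass. The shares above are for genes at 1 TPM in either group, so they are no measure for these 34. The share of all genes under the stricter filter was not computed.

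**Figure D4:**
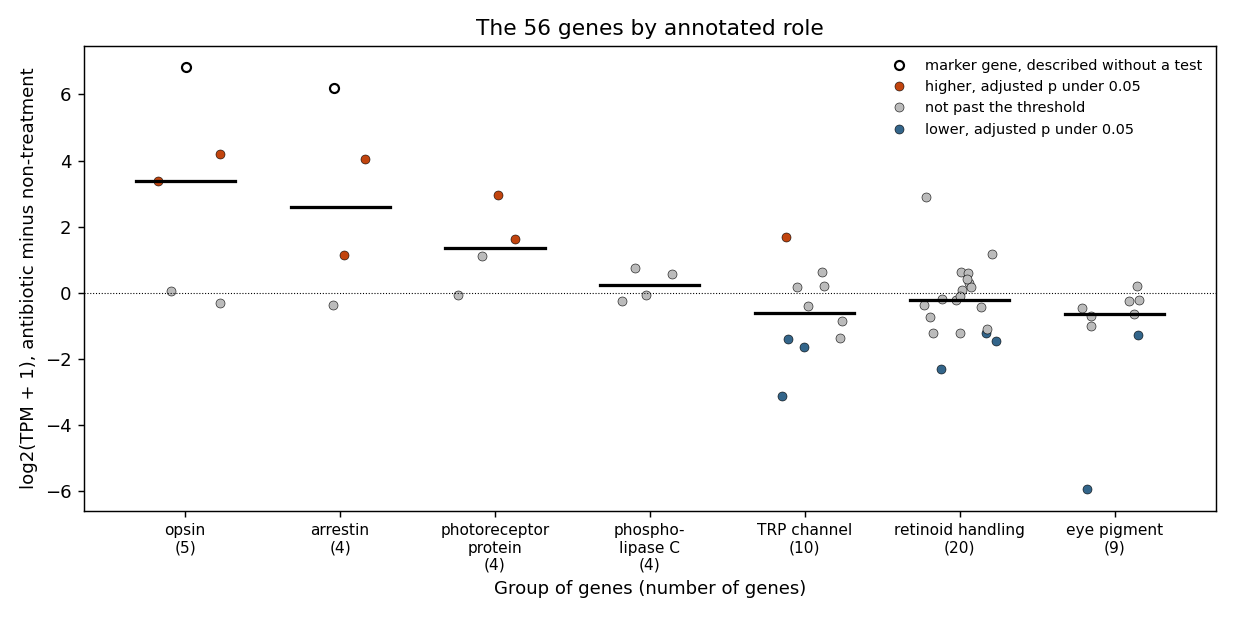
Difference of each of the 56 genes, antibiotic minus non-treatment, on the log2(TPM + 1) scale, by annotated role; dots are genes, open dots are the 2 marker genes, black bars are medians and colours give the call at an adjusted p under 0.05. Opsins, arrestins and photoreceptor proteins reach from -0.37 to 6.83, and the eye pigment genes reach from 0.22 to -5.94.

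Near the threshold of 1 TPM, the last genes inside were the phospholipase C beta-4 match already given and TRINITY_DN49047_c1_g1, a Pyrexia match with means of 0.544 TPM in the antibiotic group and 1.03 TPM in the non-treatment group. Just outside lay TRINITY_DN58628_c1_g4, a retinoid-inducible serine carboxypeptidase match with means of 0.146 TPM in the antibiotic group and 0.956 TPM in the non-treatment group, and TRINITY_DN50086_c0_g1, a TRPV5 match with means of 0.521 TPM in the antibiotic group and 0.848 TPM in the non-treatment group. Of the 36 genes below the threshold, 4 were at 0 in all 6 libraries, 6 were above 0 in a single library, and 22 had fewer than 10 counts summed over the 5 libraries with counts. Among them was a match to the ultraviolet-sensitive opsin of the honey bee, TRINITY_DN45115_c0_g1, at 0.0825, 0.0778 and 0.0201 TPM in the antibiotic libraries and 0.678, 0.317 and 0.0771 TPM in the libraries labelled non-treatment.

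Other genes of the pathway came from lists of protein names. Of 45 tested partners of phototransduction (G protein beta and gamma subunits, diacylglycerol kinases, protein kinases C, calmodulins and others) 7 were higher, 3 were lower and 35 did not pass, with a median log2 difference of 0.08. Over all tested genes, 2.88% were called higher and 7.26% lower. The wording also took in protein kinases with other roles, such as catalytic subunits of protein kinase A. The fly eye has its own G protein beta subunit, and 2 genes bore its name. TRINITY_DN66239_c4_g4 had 10.8, 11.5 and 7.35 TPM in the antibiotic libraries, against 2.47, 5.26 and 2.85 TPM in the libraries labelled non-treatment (log2 difference 1.29, SE 0.297, limma adjusted p = 0.0338). TRINITY_DN65869_c12_g4 had 14.3, 14.8 and 8.35 TPM in the antibiotic libraries, against 1.42, 6.5 and 2.01 TPM in the libraries labelled non-treatment (1.79, SE 0.445, limma adjusted p = 0.045). Neither overlapped, and each lost its call in 8 of 17 alternatives, among them without any one library except non-treatment replicate 2, with adjusted p up to 0.116 and 0.148.

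Further partners, chosen after their values were seen, stood in both directions. The putative protein kinase C delta gene TRINITY_DN55442_c0_g1 had 15.5, 16.9 and 26.8 TPM in the antibiotic libraries, against 4.4, 4.67 and 6.65 TPM in the libraries labelled non-treatment (1.71, SE 0.269, limma adjusted p = 0.00749). NinaB, the enzyme that makes retinal from carotenoids, was represented by TRINITY_DN59019_c2_g1 at 17.2, 17.3 and 10.7 TPM in the antibiotic libraries and 8.42, 9.4 and 5.76 TPM in the libraries labelled non-treatment, without overlap and without passing (0.85, SE 0.27, limma adjusted p = 0.097). RdgC, the phosphatase that resets rhodopsin, was represented by TRINITY_DN53590_c0_g3. It had 0.0117, 0.022 and 0 TPM in the antibiotic libraries and 2.77, 2.16 and 0.577 TPM in the libraries labelled non-treatment, without overlap, and as its mean over all 6 libraries was under 1 TPM no p is given. Histidine decarboxylase, which makes the photoreceptor transmitter histamine, overlapped (TRINITY_DN54473_c3_g1, 0.30, SE 0.214, limma adjusted p = 0.45), and so did the diacylglycerol kinase RdgA (TRINITY_DN64983_c2_g1, 0.40, SE 0.241, limma adjusted p = 0.361).

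Of 13 tested genes of eye development and structure, 1 was higher and 1 lower, beside 2.88% and 7.26% of all tested genes. Bride of sevenless, the ligand that instructs the R7 photoreceptor, was represented by TRINITY_DN52160_c0_g1 at 3.29, 3.96 and 3.35 TPM in the antibiotic libraries, against 0.58, 0.496 and 0.426 TPM in the libraries labelled non-treatment (1.59, SE 0.223, limma adjusted p = 0.00463), and the call held in all 17 alternatives. The Dachshund gene TRINITY_DN60640_c1_g1 was lower (-1.23, SE 0.292, limma adjusted p = 0.0378), a call lost in 12 of 17 alternatives, among them without any one library except non-treatment replicate 3 (adjusted p from 0.0849 to 0.121), and an Eyes absent gene, TRINITY_DN60820_c3_g2, overlapped.

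Of 25 tested genes of the pteridine pathway and the pigment granule, 3 were lower, beside 7.26% of all tested genes. All 3 were named after xanthine dehydrogenase, the product of the rosy gene, which acts on pteridines and purines. TRINITY_DN61002_c3_g2 had 0.666, 2.3 and 2.86 TPM in the antibiotic libraries, against 31.8, 27.7 and 41.6 TPM in the libraries labelled non-treatment (-3.63, SE 0.346, limma adjusted p = 0.00112). TRINITY_DN61923_c3_g1 had 0.458, 0.331 and 0.583 TPM in the antibiotic libraries, against 7.66, 7.52 and 6.52 TPM in the libraries labelled non-treatment (-2.50, SE 0.216, limma adjusted p = 0.000757). Both calls held in all 17 alternatives, while that of the third gene, TRINITY_DN60634_c5_g3 (-1.24, limma adjusted p = 0.044), was lost without any one library, with adjusted p from 0.0689 to 0.114. In all, the call of the third gene was lost in 10 of 17 alternatives.

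The tissue lists beside these results differed as follows. All 42 genes of the neuron and synapse list summed to 477 to 660 TPM in the antibiotic libraries and 604 to 667 TPM in the libraries labelled non-treatment. Of the 21 tested, 19 were at 1 TPM or more in all 6 libraries. The 64 tested sperm and axoneme genes had a median log2 difference of -2.63. All 126 genes of that list summed to 948 to 1169 TPM in the antibiotic libraries, against 1181 to 2409 TPM in the libraries labelled non-treatment. The 111 tested gut digestion genes had a median of -1.99. The sums over all 198 genes of that list overlapped, at 6909 to 11652 TPM in the antibiotic libraries and 9619 to 23354 TPM in the libraries labelled non-treatment. An exact two-sided permutation test of the sums gave p = 0.8 for neurons, 0.1 for sperm and 0.3 for gut, where 3 libraries against 3 cannot go below 0.1. As the lists were chosen with earlier results of these data known, these p values are only a description. The part of these tissues in the lower White, TRPC5-like, transaminase and xanthine dehydrogenase genes was not tested.

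**Figure D5:**
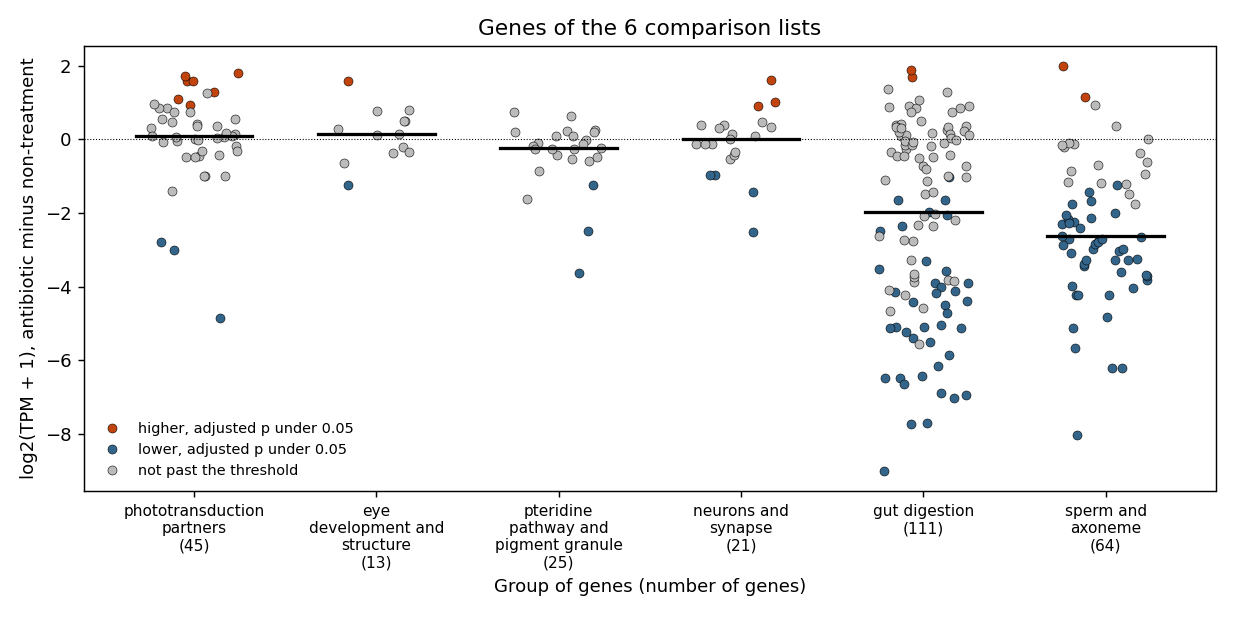
Difference of each tested gene of 6 lists outside the 56 genes, antibiotic minus non-treatment, on the log2(TPM + 1) scale; dots are genes, black bars are medians and colours give the call at an adjusted p under 0.05. The medians of the first 4 lists lie between -0.24 and 0.14, and those of gut digestion and of sperm and axoneme lie at -1.99 and -2.63.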

How the data were processed

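Per the methods, heads were extracted with a PureLink kit, libraries were run on an Illumina sequencer, and TPM was obtained by the authors through featureCounts. The submitters' processing notes name FastQC, Salmon and DESeq2. No source used here names the aligner or the assembler, and the genes carry Trinity names. The authors deposited TPM for all 6 libraries and estimated counts, which need not be whole. Counts were used for 5 libraries, rounded to whole numbers: the count column filed with antibiotic replicate 1 is headed for replicate 2 and equals its counts, so no counts of replicate 1 were analysed here. That column and a second copy of the counts of non-treatment replicate 3, 2 columns in all, were not used.

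Genes with a mean of at least 1 TPM in a group (33919) were tested with limma 3.58.1 in R 4.3.3 on log2(TPM + 1), without covariates and with a trended prior variance, and p values were adjusted by Benjamini-Hochberg over all of them. A difference on this scale understates the change of low genes. Alternatives were pseudocounts of 0.1 and 5, no filter, a filter on the mean of all 6 libraries, rescaled TPM, no trend, a replicate block, leaving out each library, and edgeR 4.0.16 and DESeq2 1.42.0 on counts. Summaries used Python 3.11.15, pandas 2.3.3 and NumPy 2.4.6. No adjusted p is given for the 2 markers or for genes under 1 TPM over all 6 libraries. The tests were tried on simulated counts with a common dispersion, in which 200 genes of at least 5 TPM were changed by a log2 difference of 2. With 6 libraries and 33509 genes tested, limma recovered 84 of the 200 and called 1 unchanged gene. With 5 libraries edgeR recovered 61 and called 0 unchanged genes. With 5 libraries DESeq2 recovered 127 but also called 38 unchanged genes. Genes of lower level were not changed in the simulation.

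The members and lists were chosen with earlier results of these data known. Named by rule were the markers, genes of at least 5 TPM in a group, the 6 best expressed retinoid genes, every opsin, arrestin and photoreceptor protein, and genes next to the threshold; other genes were named after their values were seen. RdgB fell into the retinoid group by its wording, and the phosphodiesterase subunit was moved from the opsins by hand.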

Additional observations from a re-analysis of the deposited data

How the results depend on the processing

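The count of genes that were higher, 9, ranged from 7 to 9 when 1 library was left out, and was 14 with edgeR without a count filter. The count of lower genes, 8, ranged from 3 to 8 when 1 library was left out (3 without antibiotic replicate 1, 4 without antibiotic replicate 3, 5 without non-treatment replicate 2), and was 5 without a filter on low values. The deviations of samples from their group means, taken over genes, correlated at 0.13, -0.092 and 0.098 between samples with the same number. Not every sample correlated best with its own number in this way. As the deviations of the 3 samples of a group sum to 0, these values cannot show whether the numbers pair the samples. With a replicate block the counts were 9 higher and 4 lower.

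Signs turned only for differences that did not pass. For TRINITY_DN55640_c8_g2 the values were 0.013, 0.0099 and 0.022 with edgeR (TMM, DESeq2 size factors, no filter), 0.040 with DESeq2, and -0.55 to 0.015 when 1 library was left out. For TRINITY_DN62638_c3_g1 they were 0.078, 0.073 and 0.092 with edgeR, 0.11 with DESeq2, 0.038 rescaled, and -0.21 to 0.066 when 1 library was left out. For TRINITY_DN61367_c5_g1 they were 0.42, 0.42 and 0.43 with edgeR and 0.45 with DESeq2. TRINITY_DN62383_c4_g1 gave 0.013 with DESeq2. With 1 library left out, its values ran from -0.41 to 0.012, those of TRINITY_DN61749_c4_g1 from -0.064 to 0.49, of TRINITY_DN55287_c0_g2 from -0.15 to 0.22 and of TRINITY_DN60820_c3_g2 from -0.036 to 0.23. The difference in summed TPM of the neuron list was 3.34 rescaled, and -73.5 to 17.8 when 1 library was left out. The causes were not tested.

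Over all named genes and alternatives, 848 values were counted as kept, 87 lost the threshold, 33 gained it, 24 without a test moved by more than the spread and 21 turned in sign. Kept means the same side of the threshold for genes with a test, and a move within the spread for genes without one. The edgeR, DESeq2 and limma tests rest on 5, 5 and 6 libraries. Rhodopsin, arrestin and cyclophilin rest on 9 to 52 counts a library in the libraries labelled non-treatment, so their ratios there are imprecise.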
